A study of Sus scrofa with 23 samples.

Results

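The 8 genes described here, ALB, AFP, AHSG, APOA1, APOC3, SERPINA1, VTN and HP, encode plasma proteins that hepatocytes secrete. They were taken by name, as every probe set whose only gene symbol is one of them, and each had 1 probe set, so that the set holds 8 of the 6765 named genes and 8 of the 23999 probe sets tested. A porcine Affymetrix array was hybridised with RNA of 23 samples, 1 array each. All animals were offspring of German Landrace gilts that were fed a low-protein diet during gestation, and no group on another diet was analysed here, so no value below tests the diet. The groups are 4 stages of development, namely fetuses at 94 days post conception (dpc, n = 5) and offspring at 1, 28 and 188 days post natum (dpn, n = 6 each). Each stage drew on offspring of 3 gilts, and the labels do not tie a sample to its dam, so some samples of a stage share a dam and the p-values below may be too small. They measure the spread between these samples, which may in part be technical.

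Plasma proteins of this kind are made in the rough endoplasmic reticulum of the hepatocyte and released into the blood. Albumin carries fatty acids, hormones and metals and sets the colloid osmotic pressure, while alpha-fetoprotein takes that role in the fetus and recedes after birth. Fetuin-A, the product of AHSG, is another protein that is abundant in fetal plasma, and haptoglobin, from HP, is an acute phase protein that binds free haemoglobin. Skeletal muscle is not known as a main source of them.

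Liver is the tissue given for all 23 samples, and the series title speaks of muscle. The muscle markers were bright in every sample: CKM, the muscle creatine kinase, ranged from 39615 to 102161 in signal, MYL1, a fast myosin light chain, from 45088 to 111288, and MYLPF, another fast myosin light chain, from 46635 to 93015. The median of the 27 skeletal muscle genes measured lay between the 99.0 and the 99.8 percentile of its array. The median of the 8 secreted proteins lay anywhere between the 22.2 and the 94.6 percentile, and that of 32 hepatocyte enzymes and nuclear factors between the 23.4 and the 58.1 percentile. No array of a tissue of settled identity was at hand, so the share of hepatocyte RNA cannot be given in cells or in percent. In such bulk samples, fewer cells of a type and less RNA per cell cannot be told apart.

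A few samples stood apart. Replicates 2, 4 and 5 of the 1 dpn stage, 3 of its 6 samples, were low in the 5′ to 3′ ratio of the GAPDH control probe sets (0.0868 to 0.148), while the remaining 20 arrays lay at 1.09 to 1.29. A low ratio marks labelled RNA that is short of 5′ sequence, and these samples are called low-GAPDH samples after the ratio, not after the level of GAPDH. The same ratio of the EF1a control probe sets moved with stage. It was 0.908 to 1.08 at 94 dpc, 0.101 to 0.125 in the 3 low-GAPDH samples and 0.759 to 0.824 in the other 3 at 1 dpn, 0.532 to 0.706 at 28 dpn and 0.458 to 0.638 at 188 dpn. Its part in the stage changes below was not tested. At 28 dpn, replicate 1 had the highest signal of its stage for 8 of the 8 genes. At 188 dpn, replicate 6 was highest and replicate 2 lowest for 7 of them, the exception being AFP in both cases. At 94 dpc, replicate 3 was highest for 6 of them, the exceptions being APOA1 and HP.

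The signals of ALB, the main carrier protein of plasma, were 272, 168, 1159, 165 and 163 in the 94 dpc samples. At 1 dpn they ran between 81.8 and 2909 with a median of 1129, at 28 dpn between 34.5 and 6400 (replicate 1) with a median of 164, and at 188 dpn between 744 and 9137 with a median of 2848. The ranges of all 4 stages therefore overlapped, but 5 of the 6 samples at 28 dpn were at or under 174, below every sample at 188 dpn. ALB was higher at 188 dpn than at 28 dpn, by 3.52 ± 0.94 on the log2 scale (SE, 11.5-fold on values with 16 added, adjusted p = 0.0129), and higher at 188 dpn than at 94 dpc, by 3.30 ± 0.98 (adjusted p = 0.0101). The other pairs of stages did not pass the test, among them 1 dpn over 94 dpc (1.32 ± 0.98, 95% interval -0.72 to 3.36) and 188 dpn over 1 dpn (1.98 ± 0.94, adjusted p = 0.122). With the 3 low-GAPDH samples left out, ALB at 188 dpn over 1 dpn came to 3.44 and passed (adjusted p = 0.0283), and ALB at 1 dpn over 94 dpc came to -0.14. The difference of 188 dpn over 1 dpn also passed without 28 dpn replicate 1 (adjusted p = 0.0423), a sample of neither stage that enters the shared variance.

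AFP, the fetal counterpart of albumin, is the direct neighbour of ALB in the pig genome, with 0 protein-coding genes between them in the RefSeq table of Sscrofa11.1. Its signals were 350, 123, 1253, 326 and 186 in the 94 dpc samples. At 1 dpn they ran between 8.09 and 321 (median 171), at 28 dpn between 7.16 and 97.9 (median 16.6), and at 188 dpn between 4.02 and 26.1 (median 8.85). Every fetal sample stood above every sample at 28 and at 188 dpn, while 1 dpn overlapped with all other stages. AFP fell in 4 comparisons. Its log2 change was -1.84 ± 0.56 for 28 dpn against 1 dpn (adjusted p = 0.0239), -2.38 ± 0.56 for 188 dpn against 1 dpn (adjusted p = 0.00202), -3.12 ± 0.58 for 28 dpn against 94 dpc (adjusted p = 0.000365) and -3.66 ± 0.58 for 188 dpn against 94 dpc (adjusted p = 2.19e-05). The first of these calls was lost when 1 dpn replicate 2, 4 or 5 or 28 dpn replicate 3 or 6 alone was left out (adjusted p up to 0.0648). The change of -0.54 ± 0.56 at 188 dpn against 28 dpn did not pass. With the 3 low-GAPDH samples left out, AFP at 28 dpn against 1 dpn came to -0.74 (adjusted p = 0.479) and at 188 dpn against 1 dpn to -1.29 (adjusted p = 0.135). At 28 and 188 dpn most AFP signals lay near or under the added 16 and cannot be told from background, so the size of these changes depends on that addition. With 1 and 64 added instead, the change at 188 dpn against 94 dpc was -4.87 and -2.40, called in both cases.

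AHSG encodes fetuin-A, a carrier of calcium phosphate. Its signals were 7840, 1895, 13295, 5802 and 2905 in the 94 dpc samples. At 1 dpn they ran between 91.9 and 4945 (median 2459), at 28 dpn between 39.8 and 2493 (median 192) and at 188 dpn between 141 and 1128 (median 525). The fetal samples lay above all samples at 188 dpn, and above 5 of the 6 at 28 dpn, replicate 1 being the exception. AHSG fell, with a log2 change of -4.36 ± 0.91 at 28 dpn against 94 dpc (20.5-fold lower, adjusted p = 0.00105) and of -3.35 ± 0.91 at 188 dpn against 94 dpc (10.2-fold lower, adjusted p = 0.00502). At 1 dpn against 94 dpc it came to -2.07 ± 0.91 (adjusted p = 0.0985), and to -3.75 with the 3 low-GAPDH samples left out (adjusted p = 0.00754). Thus AHSG was lower at 188 dpn than in fetuses while ALB was higher.

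**Figure D1:**
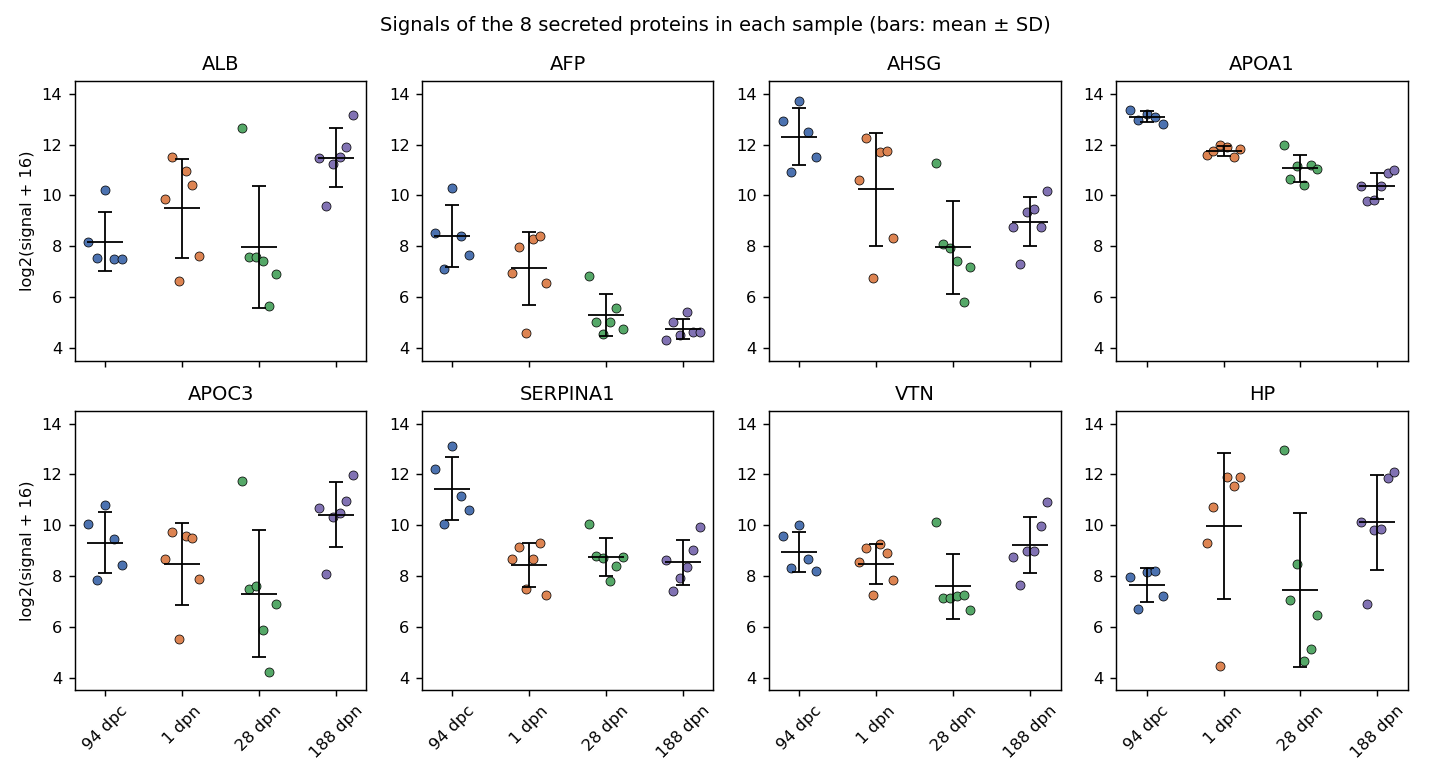
Signals of the 8 secreted proteins as log2(signal + 16), 1 panel per gene and 1 point per sample, by stage, with horizontal bars at the mean and the SD (n = 5 at 94 dpc, n = 6 at each other stage). APOA1 steps down, and the other genes spread more widely than APOA1 within each stage, except AFP at 188 dpn (SD 0.387 against 0.516). The sample 28 dpn replicate 1 is at the top of its stage in every panel.

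SERPINA1 encodes alpha-1-antitrypsin, the inhibitor of neutrophil elastase. Its signals were 4730, 1041, 8904, 2249 and 1551 in the 94 dpc samples. At 1 dpn they ran between 135 and 621 (median 392), at 28 dpn between 206 and 1048 (median 408) and at 188 dpn between 153 and 952 (median 347). The fetal samples stood above all samples at 1 and 188 dpn and above 5 of the 6 at 28 dpn, where replicate 1, at 1048, passed the lowest fetal sample. SERPINA1 fell against 94 dpc, with log2 changes of -3.01 ± 0.53 at 1 dpn (8.04-fold lower, adjusted p = 0.000157), -2.68 ± 0.53 at 28 dpn (adjusted p = 0.000585) and -2.89 ± 0.53 at 188 dpn (adjusted p = 0.000108). Among the 3 stages after birth it did not pass any comparison, with changes of 0.33 ± 0.50 at 28 dpn over 1 dpn, -0.21 ± 0.50 at 188 dpn over 28 dpn and 0.12 ± 0.50 at 188 dpn over 1 dpn.

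HP, which encodes haptoglobin, had 234, 86.7, 268, 278 and 132 in the 94 dpc samples. At 1 dpn its signals ran between 6.11 and 3792 (median 2332), at 28 dpn between 9.43 and 8043 (median 95.3) and at 188 dpn between 103 and 4374 (median 1009). Of the 1 dpn samples 5 lay above all fetal samples, and replicate 3 lay under all of them. No comparison of HP passed. The largest changes were 2.65 ± 1.24 at 188 dpn over 28 dpn (adjusted p = 0.179), -2.51 ± 1.24 at 28 dpn over 1 dpn (adjusted p = 0.184) and 2.47 ± 1.31 at 188 dpn over 94 dpc (adjusted p = 0.151). Single samples decided this: without 28 dpn replicate 1, HP passed at 188 dpn over 28 dpn (3.75, adjusted p = 0.0252) and at 28 dpn over 1 dpn (-3.62, adjusted p = 0.026), and without 1 dpn replicate 3 it passed at 1 dpn over 94 dpc (3.44, adjusted p = 0.0284) and likewise at 28 dpn over 1 dpn (-3.61, adjusted p = 0.0237).

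VTN encodes vitronectin, an adhesion protein that also stabilises the main inhibitor of the plasminogen activators. Its signals were 739, 306, 1004, 395 and 281 in the 94 dpc samples, and ran between 136 and 592 at 1 dpn (median 410), between 86.1 and 1101 at 28 dpn (median 128) and between 185 and 1904 at 188 dpn (median 494). At 28 dpn the 5 samples other than replicate 1 stood at 136 or less, under all samples at 188 dpn and at 94 dpc. VTN rose at 188 dpn over 28 dpn by 1.63 ± 0.54 on the log2 scale (adjusted p = 0.0481). This call lies at the edge of the threshold: it was lost in 17 of the 23 fits that leave out 1 sample, over which the change ranged between 1.29 and 2.14. At 188 dpn over 94 dpc VTN came to 0.26 ± 0.57, with a 95% interval of -0.93 to 1.44.

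The apolipoprotein genes APOA1 and APOC3 are direct neighbours too, with 0 protein-coding genes between them in the same table, and took different courses. APOC3, an inhibitor of the clearance of triglyceride-rich lipoproteins, had 1047, 213, 1772, 688 and 328 in the 94 dpc samples. Its signals ran between 29.6 and 836 at 1 dpn (median 547), between 2.60 and 3368 at 28 dpn (median 132) and between 253 and 4037 at 188 dpn (median 1514). The 5 lower samples at 28 dpn were under all samples at 188 dpn. APOC3 rose at 188 dpn over 28 dpn by 3.12 ± 0.93 on the log2 scale (8.68-fold, adjusted p = 0.0252), a call that was lost without 28 dpn replicate 4, 28 dpn replicate 5 or 188 dpn replicate 6 (the lowest change was 2.50 and the highest adjusted p 0.0733). Against 94 dpc it did not pass at 188 dpn (1.101 ± 0.97, adjusted p = 0.415).

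APOA1, the main protein of high-density lipoprotein, is made in liver and in the intestine and, in the chick embryo, also in skeletal muscle. Its signals were 10556, 8042, 9359, 8721 and 7128 in the 94 dpc samples, a mean of 8761 ± 1300.4 (SD, n = 5). The means were 3469 ± 463 at 1 dpn, 2264 ± 946 at 28 dpn and 1378 ± 494 at 188 dpn (SD, n = 6 each), with ranges of 2871 to 4080, 1338 to 4030 and 871 to 2038. Fetal samples stood above all others, and the samples at 1 dpn stood above all samples at 188 dpn. APOA1 fell in 4 comparisons. Its log2 change was -1.33 ± 0.25 for 1 dpn against 94 dpc (adjusted p = 0.00037), -2.02 ± 0.25 for 28 dpn against 94 dpc (adjusted p = 3.57e-06), -1.39 ± 0.24 for 188 dpn against 1 dpn (adjusted p = 0.000105) and -2.72 ± 0.25 for 188 dpn against 94 dpc (6.58-fold lower, adjusted p = 1.05e-08). The steps between neighbouring stages after birth missed the threshold, at -0.69 ± 0.24 for 28 dpn against 1 dpn (adjusted p = 0.0504) and -0.70 ± 0.24 for 188 dpn against 28 dpn (adjusted p = 0.0567). They passed in 6 and 4 of the 23 fits that leave out 1 sample.

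The samples of all stages enter one fit, and the 6 comparisons share samples, so their counts are not independent of each other. At 1 dpn against 94 dpc, 2 of the 8 secreted proteins were called, both lower (APOA1 and SERPINA1), where 25.9% of all probe sets were called, 8.08% higher and 17.9% lower. At 28 dpn against 1 dpn, 1 was called, AFP, lower (17.2% of all probe sets called, 10.1% higher and 7.03% lower). In the step to 188 dpn against 28 dpn, 3 were called, all higher (ALB, APOC3 and VTN), where 13.8% of all probe sets were called, 4.66% higher and 9.15% lower. These counts stand on few genes, and the first of them is near the share over all probe sets. Among the 6765 genes, each by 1 probe set, the shares called in these 3 comparisons were larger, at 33.1%, 24.1% and 18.3%.

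Across the longer intervals, 4 of the 8 were lower at 28 dpn than at 94 dpc (AFP, AHSG, APOA1 and SERPINA1), against 23.6% of all probe sets called, 8.87% higher and 14.7% lower. AFP and APOA1 were lower at 188 dpn than at 1 dpn, and none was higher (29.2% called, 13.6% higher and 15.6% lower). Between the outermost stages, at 188 dpn against 94 dpc, ALB was higher and AFP, AHSG, APOA1 and SERPINA1 were lower, 5 of 8 genes, where 36.7% of all probe sets were called, 13.3% higher and 23.4% lower. The samples of the 2 stages did not overlap for AFP, AHSG, APOA1 and SERPINA1 in that comparison, where 29.2% of all probe sets did not overlap. Without overlap were also APOA1 and SERPINA1 at 1 dpn against 94 dpc (13.9% of all probe sets), AFP and APOA1 at 28 dpn against 94 dpc (20.6%) and APOA1 at 188 dpn against 1 dpn (13.3%). In the other 2 comparisons 0 of the 8 genes were without overlap, against 6.83% of all probe sets at 28 dpn against 1 dpn and 10.9% at 188 dpn against 28 dpn.

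Markers of other cell types moved in the same comparisons. At 188 dpn against 94 dpc, 23 of the 27 skeletal muscle genes were higher and 2 lower (median change 1.28), 4 of the 5 erythroid genes were lower, and of the 6 tissue macrophage genes 1 was higher and 3 lower. Of the macrophage genes 4 were higher and 0 lower at 28 dpn against 1 dpn, and 4 were lower and 0 higher at 188 dpn against 28 dpn, where 3 of the 5 erythroid genes were lower too. Muscle genes were also higher at 28 dpn against 1 dpn (13 of 27, with 1 lower) and at 1 dpn against 94 dpc (7, with 2 lower). Of all 6765 genes, 47% were called at 188 dpn against 94 dpc and 24.1% at 28 dpn against 1 dpn. The share was 18.3% at 188 dpn against 28 dpn, and 33.1% at 1 dpn against 94 dpc, near the 33.3% of the muscle list. At 188 dpn against 94 dpc, 25% of the adipocyte and 20% of the bile duct genes were called. For granulocyte and monocyte and for intestinal epithelium genes it was 0%. The part of these shifts in the changes of the secreted proteins was not tested.

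Single samples weighed on the comparisons with 28 dpn. Without 28 dpn replicate 1, 6 of the 8 genes were called lower at 28 dpn than at 1 dpn (6.33% of all probe sets lower in that fit), adding AHSG, ALB, APOA1, HP and VTN to AFP. AHSG was also called there without 1 dpn replicate 3 or 6, and APOA1 without 1 dpn replicate 1 or 188 dpn replicate 2, 3, 5 or 6. Without 28 dpn replicate 1, APOC3 and VTN joined the genes lower at 28 dpn than at 94 dpc, at -2.90 (adjusted p = 0.0121) and -1.88 (adjusted p = 0.00681), where 13.5% of all probe sets were lower. With the 3 low-GAPDH samples left out, in contrast, 0 of the 8 were called at 28 dpn against 1 dpn, against 13.4% of all probe sets. In that fit AFP and AHSG joined APOA1 and SERPINA1 among the genes lower at 1 dpn than at 94 dpc, which made 4, where 17.2% of all probe sets were lower.

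**Figure D2:**
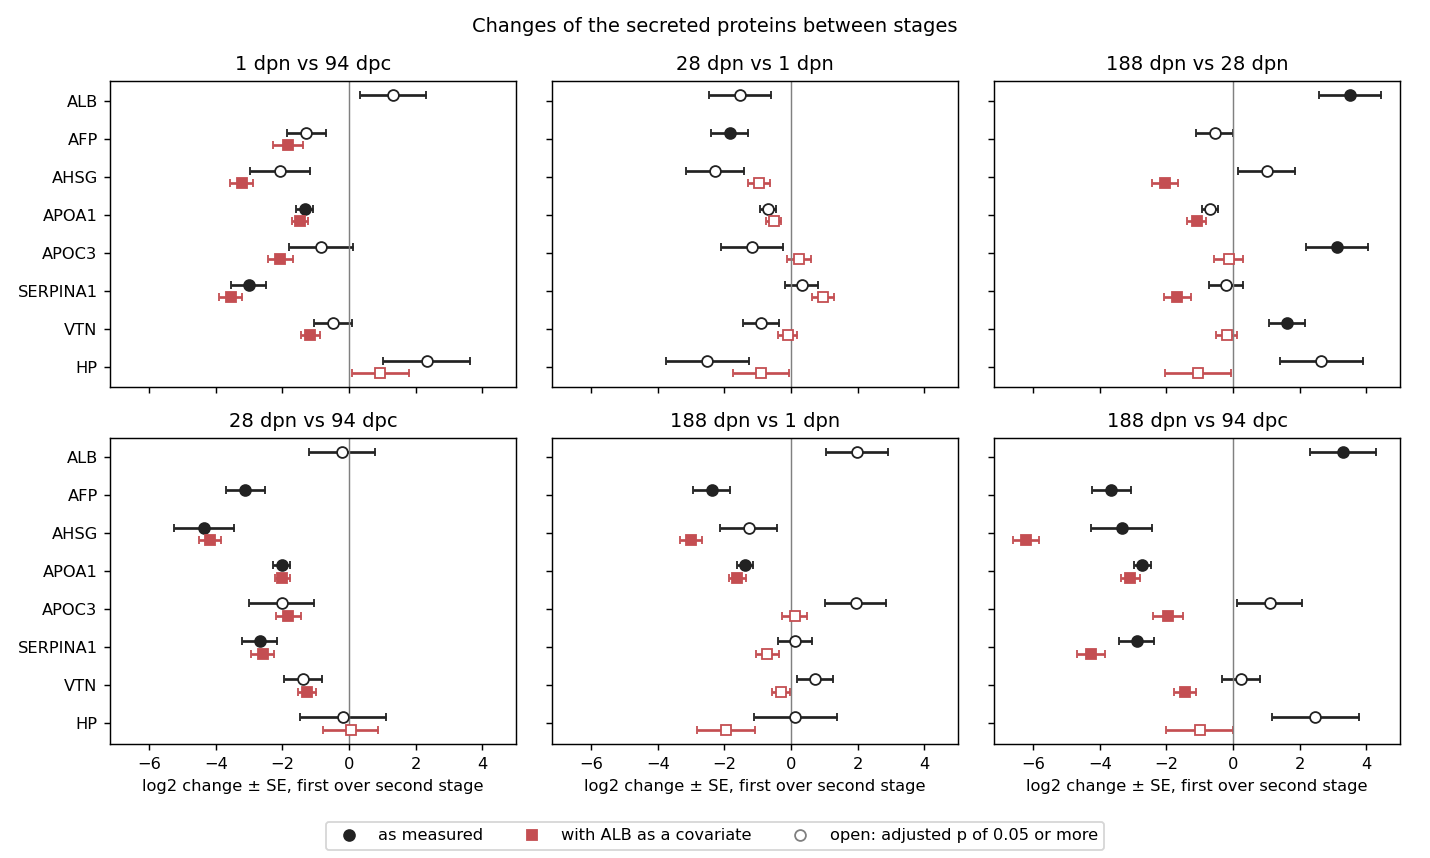
Log2 changes with SE of the 8 genes in 6 comparisons of stages, as measured (black circles) and with the level of ALB as a covariate (red squares), where open symbols have an adjusted p of 0.05 or more and AFP has a red square only at 1 dpn over 94 dpc. At 188 dpn over 28 dpn the filled black circles of ALB, APOC3 and VTN lie right of 0, while the filled red squares of AHSG, APOA1 and SERPINA1 lie left of it. The open red squares of APOC3, VTN and HP lie left of 0 too.

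The spread within a stage was the second feature of these genes. The residual SD of ALB, after the stage means were taken off, was 1.78 on the log2 scale, against a median of 0.547 over all probe sets, and it was larger than that of 99.9% of them. HP, at 2.37, stood at percentile 99.98, APOC3, at 1.76, at 99.9, and SERPINA1, at 0.932, at 96.6, the lowest of 7 genes. APOA1, at 0.409, stood at percentile 32.2. The ratio of highest to lowest sample within a stage reached 186 for ALB and 3.01 for APOA1, both at 28 dpn.

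At 1 dpn, the spread went along with the RNA measure. The 3 samples of low GAPDH ratio had 1338 to 2909 for ALB, against 81.8 to 919 in the other 3, and 3362 to 4945 for AHSG, against 91.9 to 1556. AFP, APOC3, SERPINA1 and VTN were likewise split without overlap, higher in the samples of low ratio. For SERPINA1 the split was narrow, with 396 or more against 388 or less. The share of all probe sets split in this way was not counted, and 3 samples against 3 split readily. These genes vary together, so their splits are not independent. APOA1 and HP overlapped, with 2871 to 3827 for APOA1 in the samples of low ratio, against 3039 to 4080 in the other 3. At 28 dpn and 188 dpn the GAPDH ratio was between 1.09 and 1.29, while the EF1a ratio varied, with the highest value at 28 dpn, 0.706, in replicate 1. The part of RNA quality in these levels was not tested.

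The genes moved with each other from sample to sample. Once stage means were taken off, the Pearson r with ALB over the 23 samples was 0.944 for AHSG, 0.936 for APOC3, 0.905 for VTN, 0.795 for SERPINA1, 0.791 for HP, 0.715 for AFP and 0.479 for APOA1. Over the 21 pairs of the 7 genes other than APOA1, r ran between 0.591 and 0.944 with a median of 0.792, and over the 7 pairs with APOA1 between 0.165 and 0.689. The points share arrays and the scaling of each array. Without 28 dpn replicate 1, r with ALB became 0.171 for APOA1 and 0.663 for HP, and stayed at 0.94 for AHSG.

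**Figure D3:**
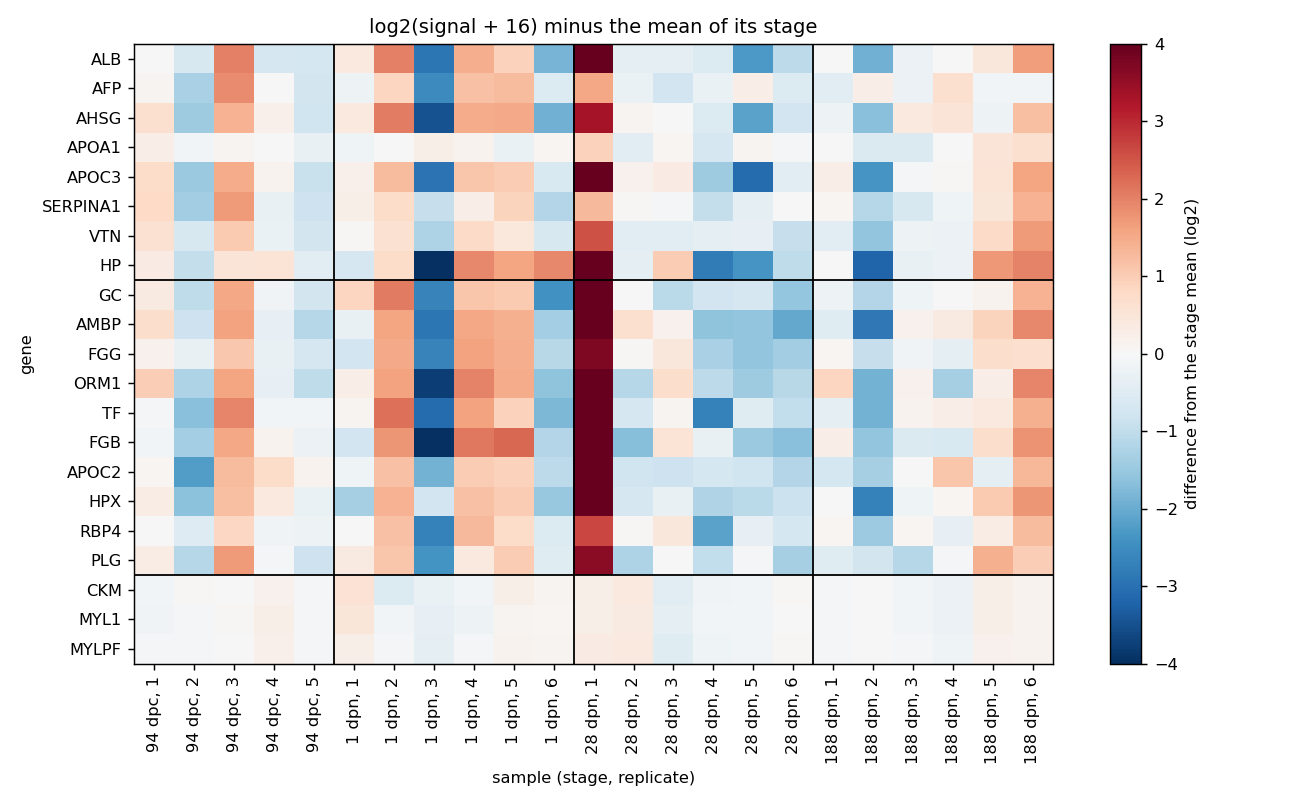
Difference of log2(signal + 16) from the mean of its stage, in colour (cut at 4 in either direction), for the 8 secreted proteins (top block), the 10 genes most like ALB (middle block) and 3 muscle markers (bottom block), in columns of samples grouped by stage. The dark red column of 28 dpn replicate 1 and the blue column of 1 dpn replicate 3 run through the top and middle blocks, with APOA1 pale throughout, and the muscle block is pale. The genes of the middle block were picked by their likeness to ALB over these same samples.

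Within single stages, ALB was set against each of the 7 other genes in the 3 stages of 6 samples, 21 relations in all, with exact two-sided permutation tests. For 11 of them the Pearson r passed after Benjamini-Hochberg adjustment. The smallest raw p that 6 samples could give here was 0.00278, so that the test resolves little. With 1 sample less in a stage, 4 to 11 passed, the count being 4 without 188 dpn replicate 2, 3, 5 or 6 and 6 without 1 dpn replicate 1, 3 or 6. ALB and APOC3 were related in all 3 stages: at 1 dpn r was 0.943 (rho 1, exact adjusted p = 0.0167 and 0.0389), at 28 dpn 0.956 (rho 0.943, exact adjusted p = 0.0371 and 0.0389) and at 188 dpn 0.985 (rho 0.943, exact adjusted p = 0.0167 and 0.0389). After the 2 samples farthest from the median of ALB were left out, r of APOC3 was 0.887 at 1 dpn, 0.287 at 28 dpn and 0.931 at 188 dpn, so the relation at 28 dpn rests on those samples.

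AHSG was related to ALB at 1 dpn (r 0.992, rho 0.943, exact adjusted p = 0.0167 and 0.0389) and at 28 dpn (r 0.986, rho 0.943, exact adjusted p = 0.0167 and 0.0389), with r of 0.917 and 0.868 after 2 samples were left out. At 188 dpn AHSG missed the threshold (r 0.896, rho 0.714, exact adjusted p = 0.0826 and 0.204). AFP, by contrast, had r of 0.912 at 1 dpn (rho 0.771, exact adjusted p = 0.035 and 0.166). This r was 0.573 after 2 samples were left out, and its call was lost in 10 of the 18 sets that leave out 1 sample. At 188 dpn, where its signals were 26.1 or less, AFP had r of -0.29 (rho 0.0286, exact adjusted p = 0.572 and 1). The difference of these values of r was not tested. APOA1 had r of -0.51 at 1 dpn (rho -0.37, exact adjusted p = 0.33 and 0.614) and 0.847 at 188 dpn (rho 0.943, exact adjusted p = 0.0167 and 0.0389). The other relations that passed on r were VTN at 1 and 188 dpn and SERPINA1 and HP at 188 dpn. At 1 dpn the 3 samples of low GAPDH ratio were the 3 highest for ALB, and 3 samples are too few for a value of r in each set.

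Because the genes varied together within a stage, their signals were also read relative to ALB of the same sample. The ratio of 2 probe sets has no meaning as an amount, and only its course over the stages can be read. The AFP to ALB ratio had a median of 1.14 at 94 dpc (0.734 to 1.98) and 0.134 at 1 dpn (0.0812 to 0.436), and it is not read at the later stages, where AFP was near background. The AHSG to ALB ratio had a median of 17.8 at 94 dpc (11.3 to 35.3), 1.70 at 1 dpn (1.12 to 2.54), 1.21 at 28 dpn (0.39 to 1.46) and 0.169 at 188 dpn (0.108 to 0.263). For AHSG the ratio at 94 dpc did not overlap with any later stage, nor did that at 188 dpn with any earlier one, although both genes spread at least 7.02-fold within each stage. The APOC3 to ALB ratio at 94 dpc (1.27 to 4.18) also stood above every later stage, with maxima of 1.20, 1.04 and 0.579 at 1, 28 and 188 dpn. At 188 dpn, however, it overlapped with 1 and 28 dpn. None of the other ratios read at all 4 stages fell in the median at each step. The SERPINA1 to ALB ratio had medians of 9.52, 0.443, 2.37 and 0.12 at 94 dpc, 1, 28 and 188 dpn, and that of APOC3 had 2.01, 0.407, 0.731 and 0.5 in the same order, so that both were higher in the median at 28 dpn than at 1 dpn, with ranges that overlapped between these stages. The same held for VTN (1.82, 0.367, 0.778 and 0.207) and APOA1 (43.7, 2.73, 11.1 and 0.455). The HP to ALB ratio overlapped between all stages.

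**Figure D4:**
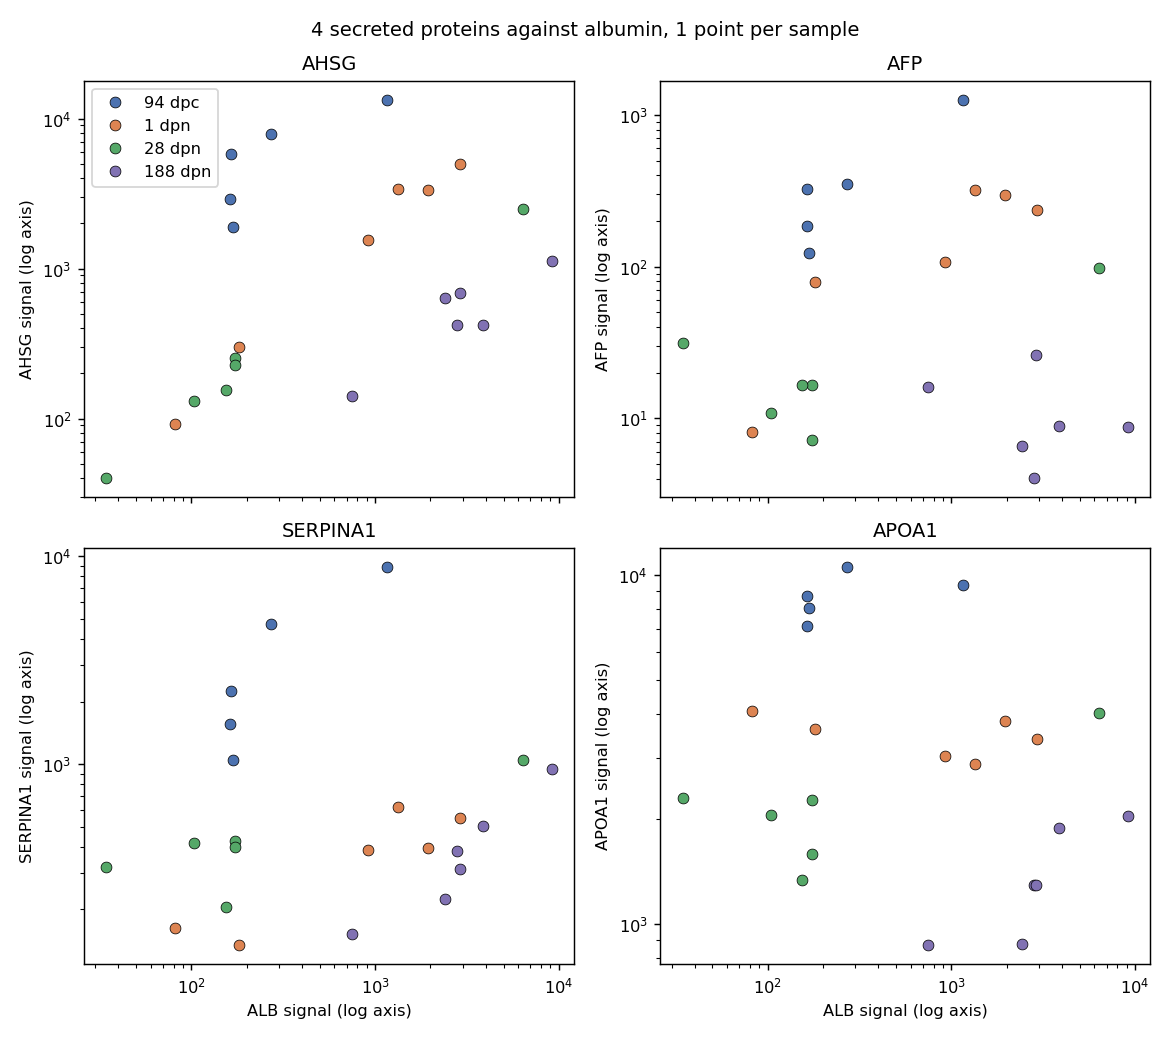
Signals of AHSG, AFP, SERPINA1 and APOA1 (vertical, log axes) against ALB (horizontal, log axes), 1 point per sample, coloured by stage. AHSG runs along separate bands that rise with ALB, with 94 dpc uppermost, 1 and 28 dpn between and 188 dpn lowest, while APOA1 lies in nearly level bands.

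The same reading was put in a linear model with the ALB level as a covariate next to stage, which was chosen after the data were seen and assumes 1 slope for all stages and no error in ALB. Where ALB is higher at the later stage, a gene that follows ALB comes out lower at equal ALB than as measured. Most genes do not follow ALB (median r 0.018), so the shares over all probe sets are not a like measure for these counts. At 1 dpn over 94 dpc, 6 of the 7 other genes were lower at equal ALB, where 17% of all probe sets were lower in the same fit, with SERPINA1 at -3.56 ± 0.35, AHSG at -3.22 ± 0.34, APOC3 at -2.06 ± 0.38 and HP as the exception (0.95 ± 0.85, adjusted p = 0.469). For 28 and 188 dpn the model is not read for AFP, since a signal near background cannot follow ALB. At 28 dpn over 1 dpn none passed (14.3% of all probe sets called), the changes running between -0.95 ± 0.33 for AHSG (adjusted p = 0.0548) and 0.96 ± 0.34 for SERPINA1 (adjusted p = 0.0616). At 188 dpn over 28 dpn, AHSG (-2.05 ± 0.39, adjusted p = 0.00203), SERPINA1 (-1.67 ± 0.41) and APOA1 (-1.08 ± 0.28) were lower, where 6.39% of all probe sets were. APOC3 (-0.13 ± 0.44) and VTN (-0.19 ± 0.33), both called higher without the covariate, did not pass with it. The call of APOA1 in that comparison was lost without 28 dpn replicate 1 (adjusted p = 0.302) and without 188 dpn replicate 2.

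Over the whole span, at 188 dpn over 94 dpc and equal ALB, 5 genes were lower, where 20.9% of all probe sets were. ALB itself was higher by 3.30 in this comparison. Without the covariate APOC3 was at 1.101 and VTN at 0.26, so these were lower relative to ALB and not as measured. The log2 change was -6.22 ± 0.40 for AHSG (adjusted p = 3.03e-10), -4.26 ± 0.41 for SERPINA1, -3.08 ± 0.29 for APOA1, -1.95 ± 0.45 for APOC3 and -1.45 ± 0.33 for VTN. HP was at -1.003 ± 1.01 (adjusted p = 0.504). These 5 calls held in all 23 fits that leave out 1 sample, with AHSG between -6.62 and -5.99.

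The genes whose pattern was most like that of ALB were sought among 4985 genes brighter than the median probe set, by Pearson r over the 23 samples with stage means taken off. The 10 leading genes outside the 8 were GC (vitamin D binding protein, r 0.949), AMBP (alpha-1-microglobulin and bikunin), FGG (fibrinogen gamma chain), ORM1 (orosomucoid), TF (transferrin), FGB (fibrinogen beta chain), APOC2 (the activator of lipoprotein lipase), HPX (hemopexin), RBP4 (retinol binding protein) and PLG (plasminogen, r 0.861). All 10 belong to a list of 54 other plasma proteins that was measured. The list was chosen with earlier results of these data known, so this is not independent of them. Between 8 and 10 of the 10 genes were kept when any 1 sample was left out. At 94 dpc replicate 3 was highest for 10 of the 10, at 28 dpn replicate 1 for 10, at 188 dpn replicate 6 for 8 and at 1 dpn replicate 2 for 6. These samples were also the highest of their stages for ALB. Since the genes were picked by their likeness to ALB over the same samples, this follows largely from the selection and is no separate result.

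The levels of these genes followed their own courses over the stages. ORM1, an acute phase protein, had a mean of 6265 ± 5206 at 94 dpc (SD, n = 5), and of 537 ± 463 at 1 dpn, 142 ± 306 at 28 dpn and 116 ± 121 at 188 dpn (SD, n = 6 each), and it fell at 188 dpn against 94 dpc by 5.69 ± 1.02 on the log2 scale (adjusted p = 8.73e-05). TF, the iron carrier, had medians of 754, 1300.4, 128 and 1426 at 94 dpc, 1, 28 and 188 dpn. GC had medians of 237, 243, 23.1 and 288 in the same order. TF and GC, picked for their likeness to ALB, had 1 sample at 28 dpn far above the others, as the selection favours. It had 5954 for TF where the next sample had 215, and 1116 for GC where the next had 48.

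**Figure D5:**
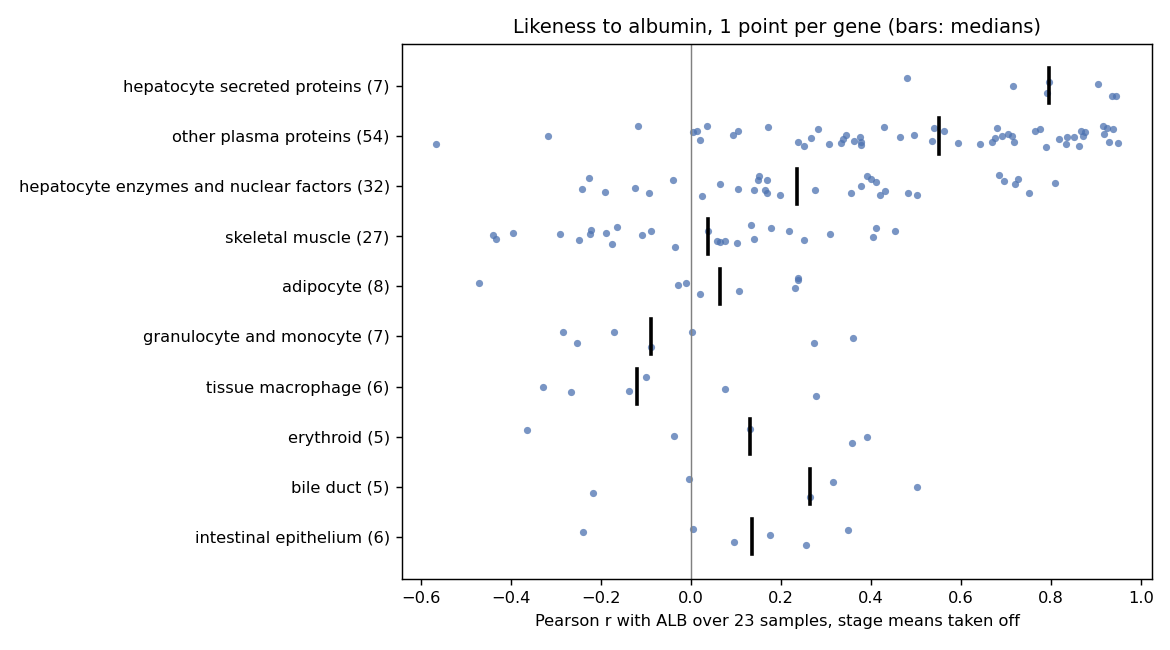
Pearson r with ALB over 23 samples after stage means were taken off (horizontal), 1 point per gene, in rows by gene list with the number of genes, black bars marking list medians. The secreted proteins and the other plasma proteins reach above 0.9, the hepatocyte enzymes spread lower, and no muscle gene passes 0.5.

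Over the gene lists, r with ALB was above 0.5 for 29 of the 54 other plasma proteins (median 0.55), 7 of the 32 hepatocyte enzymes and nuclear factors (median 0.237), 0 of the 27 skeletal muscle genes (median 0.0378) and 177 of all 6764 genes, or 2.62% (median 0.018). Of the lists for other cell types, 0 of 8 adipocyte, 0 of 7 granulocyte and monocyte, 0 of 6 tissue macrophage, 0 of 5 erythroid and 0 of 6 intestinal epithelium genes were above 0.5, and 1 of 5 bile duct genes was. The summed signal of the 54 plasma proteins ranged from 20405 to 59726 over the samples and that of the 32 enzymes and nuclear factors from 2123 to 34791. The summed signals were 6757 to 24043 for adipocyte genes (with FABP4 at 2298 to 14174), 173 to 3075 for granulocyte and monocyte genes, 1306 to 11899 for tissue macrophage genes, 631 to 2835 for erythroid genes, 125 to 5765 for bile duct genes and 158 to 766 for intestinal epithelium genes. Their part in the levels of the secreted proteins was not tested.

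Other genes, listed as plasma proteins or as hepatocyte enzymes and nuclear factors, were counted in the same fit. Which cells made their RNA in these samples was not tested. Over 1 dpn against 94 dpc, 28 dpn against 1 dpn, 188 dpn against 28 dpn, 28 dpn against 94 dpc and 188 dpn against 1 dpn, the 54 other plasma proteins had 5, 7, 0, 8 and 3 genes higher and 3, 4, 2, 4 and 1 lower. That is 14.8%, 20.4%, 3.70%, 22.2% and 7.41% of the list, while 33.1%, 24.1%, 18.3%, 32.3% and 38% of all 6765 genes were called. Of the 54 other plasma proteins, 8 were higher and 4 lower at 188 dpn than at 94 dpc (22.2%, against 47% of all genes), with a median change of 0.19, while the median of the 8 secreted proteins was -1.23 and that of all 6765 genes -0.08. C4BPA, which encodes a regulator of complement, had 2092 ± 1287 at 188 dpn (SD, n = 6) against 69.0 ± 54.8 at 94 dpc (SD, n = 5) and was higher by 4.71 ± 0.63 on the log2 scale (adjusted p = 1.98e-06). AGT, angiotensinogen, was highest at 1 dpn, with 11328 ± 8557 (SD, n = 6), against 460 ± 85.3 at 94 dpc (SD, n = 5), and was higher there by 4.26 ± 0.50 (adjusted p = 1.59e-06). C3, the central complement protein, was higher at 28 dpn than at 94 dpc by 3.03 ± 0.40 (adjusted p = 8.12e-06). C4BPA also rose at 28 dpn over 1 dpn, by 3.90 ± 0.60 (adjusted p = 8.05e-05), in the comparison in which AFP fell, while APOC2, of the genes most like ALB, fell there (-2.69 ± 0.79, adjusted p = 0.021). ITIH4, of the inter-alpha-trypsin inhibitor family, was higher at 1 dpn than at 94 dpc by 2.04 ± 0.30 (adjusted p = 2.31e-05). With stage means taken off, r with ALB was 0.014 for C4BPA, 0.237 for AGT, 0.378 for C3, 0.674 for ITIH4 and 0.874 for APOC2. At 28 dpn C4BPA was highest in replicate 5, at 7038, the sample with the lowest ALB of its stage.

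Of the 32 hepatocyte enzymes and nuclear factors, 14 were higher and 1 lower at 188 dpn than at 94 dpc, with a median change of 0.78. This is 46.9% of the list, near the 47% of all genes, of which 1317 were higher and 1864 lower. CYP3A29, a cytochrome of drug and steroid oxidation, had 465 to 1021 in the 188 dpn samples against 2.04 to 39.9 in the 94 dpc samples, without overlap, a change of 4.72 ± 0.55 on the log2 scale (adjusted p = 3.27e-07). Its mean at 94 dpc, 15.4, lay under the added 16, so the size of this change depends on that addition and understates the difference of the signals. At 188 dpn over 28 dpn, 7 of the 32 enzymes were higher and 0 lower (21.9%, against 18.3% of all genes, of which 392 were higher and 849 lower). GNMT, which uses up methyl groups from S-adenosylmethionine, was among them (1.78 ± 0.53, adjusted p = 0.025), as were PCK1, of gluconeogenesis (1.85 ± 0.60, adjusted p = 0.0395), and CYP2C33, a cytochrome (2.42 ± 0.76, adjusted p = 0.0343). PCK1 and CYP2C33 were highest in 188 dpn replicate 1, with 10058 and 8196, where the next samples had 864 and 1543. Without that sample the changes were 1.12 for PCK1 (adjusted p = 0.0538), 1.76 for CYP2C33 (adjusted p = 0.089) and 1.74 for GNMT (adjusted p = 0.0432), and 3 of the 32 enzymes were called. Leaving out any 1 sample of the 2 stages gave 2 to 9 called, all higher, with 2 called without 28 dpn replicate 2, 3, 4 or 6, and the calls of PCK1 and CYP2C33 were lost in each of these fits. Without 188 dpn replicate 2, 3 or 6, 3 or 4 were called and PCK1 was not among them, nor was CYP2C33 without replicate 3 or 6. The call of GNMT was lost without 188 dpn replicate 2 or 28 dpn replicate 5 or 6 (adjusted p up to 0.0716). In 188 dpn replicate 1, ALB was at 2805, close to the median of its stage. With stage means taken off, r with ALB was -0.125 for CYP3A29, -0.093 for GNMT, 0.199 for PCK1 and 0.503 for CYP2C33.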

How the data were processed

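RNA of 23 samples was measured on a porcine Affymetrix array. The deposited values are linear intensities, 1 signal per probe set and array, and were taken as scaled by the authors to one target, since the 2% trimmed mean was 500.1 to 500.2 on every array. The submitters' processing notes name GCOS 1.1.1 and do not say what it did. Summarisation, background correction and detection calls were not given in the sources used here. Samples were grouped by the stage in the labels, and replicate numbers follow accession order and pair nothing. Array number limits the precision.

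After 124 control probe sets were left out, log2(signal + 16) of 23999 probe sets was fitted with 1 mean per stage in limma 3.58.1 (lmFit and eBayes, R 4.3.3), for all 6 pairs of stages. All tests are two-sided, p-values were adjusted by Benjamini and Hochberg's method across the 23999 probe sets, and called means an adjusted p under 0.05. The code was first tested on simulated data. Of the probe sets, 10069 had 1 gene symbol, and a gene is its probe set of highest mean. Relations within a stage used exact permutation tests in scipy 1.17.1. Figures were drawn with matplotlib 3.10.9.

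The genes named are the 8 members, the 10 genes most like ALB, up to 3 called genes with the largest change per comparison from the lists of other plasma proteins and of hepatocyte enzymes and nuclear factors, and up to 3 bright genes of each other list. Members and lists were chosen with earlier results of these data known. The alternatives were quantile normalization, centring on the median, pseudocounts of 1 and 64, a filter on dim probe sets, fits of only 2 stages, trend and robust eBayes, array weights and leaving out each sample. The fits without the samples of low GAPDH ratio and with ALB as a covariate, and the leaving out of samples for the enzymes, were added after the data were seen.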

Additional observations from a re-analysis of the deposited data

Results flagged for a closer look

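Of the 32 groups of samples checked (8 genes in 4 stages), 11 held a sample that lay farther from its nearest neighbour, relative to the range of its stage, than Dixon's 95% critical value allows. The check was made on the linear signals, not on the log2 values used elsewhere, where fewer samples may stand out. Its rate of about 1 in 20 groups by chance assumes a normal spread, which was not tested here. The 11 groups can therefore not be set against that rate. The groups are also not independent, since they share samples. 8 of the 11 were 28 dpn replicate 1, with signals of 6400 for ALB (next sample 174), 97.9 for AFP (31.2), 2493 for AHSG (253), 4030 for APOA1 (2298), 3368 for APOC3 (181), 1048 for SERPINA1 (426), 1101 for VTN (136) and 8043 for HP (340.4). At 94 dpc, replicate 3 had 1159 for ALB (272) and 1253 for AFP (350). At 188 dpn, replicate 6 had 9137 for ALB (3855). The GAPDH ratio of 28 dpn replicate 1 was 1.27, that of 94 dpc replicate 3 was 1.21 and that of 188 dpn replicate 6 was 1.27, within the range of the other samples outside the 3 of low ratio at 1 dpn. The EF1a ratio of 28 dpn replicate 1, 0.706, was the highest of its stage, and it was 1.03 in 94 dpc replicate 3 and 0.55 in 188 dpn replicate 6.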

How the results depend on the processing

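The members called at 28 dpn against 1 dpn, 1 as reported, came to 2 with centring on the array median, 3 with a pseudocount of 64, 2 without the dimmer probe sets (which removes AFP), 0 in a fit of only the 2 stages, 2 with trend and robust eBayes, 0 without the 1 dpn samples of low GAPDH ratio, 0 with ALB as a covariate, and 0 to 6 when 1 sample was left out. At 1 dpn against 94 dpc, 2 became 4 without the samples of low ratio and 6 with the ALB covariate. For 188 dpn against 28 dpn, 3 became 1 in a fit of the 2 stages, and 1 to 4 when 1 sample was left out. With the covariate 4 were called there, all lower, namely AHSG, APOA1, SERPINA1 and AFP, the last near background at both stages. They are other genes than the 3 reported, ALB, APOC3 and VTN, which were higher. ALB itself is not tested in that fit. For 188 dpn against 1 dpn, 2 became 1 without the dimmer probe sets. The 11 relations with ALB became 4 to 11 when 1 sample was left out. Over all probe sets, calls at 28 dpn against 1 dpn were 2453 in a fit of 2 stages instead of 4121 (17.2%). They came to 13.4% without the samples of low ratio and 14.3% with the covariate. In that comparison 1974 were higher and 2041 lower with centring, and 2601 and 1914 with a pseudocount of 64. At 188 dpn against 28 dpn, 1627 were higher and 2496 lower in a fit of 2 stages, and 6.39% were lower with the covariate. No other count of members moved by over 1.5 times. The cause of these moves was not tested.

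Changes of sign touched uncalled values, except where ALB entered as a covariate. Without the samples of low ratio ALB at 1 dpn against 94 dpc was -0.14 and AHSG at 188 dpn against 1 dpn 0.40. HP at 28 dpn against 94 dpc was 0.017 with centring and 0.16 with a pseudocount of 64, and HP at 188 dpn against 1 dpn -0.054 with that pseudocount. With the covariate, APOC3 was 0.24 at 28 dpn against 1 dpn. At 188 dpn against 28 dpn AHSG was -2.05, APOC3 -0.13, HP -1.05 and VTN -0.19. HP was 0.048 at 28 dpn against 94 dpc. At 188 dpn against 1 dpn HP was -1.95, SERPINA1 -0.71 and VTN -0.30, and at 188 dpn against 94 dpc APOC3 was -1.95, HP -1.003 and VTN -1.45.

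When 1 sample was left out, SERPINA1 ranged from -0.48 to 0.057 at 188 dpn against 28 dpn and from -0.15 to 0.35 at 188 dpn against 1 dpn, ALB from -1.15 to 0.29 and HP from -1.28 to 0.38 at 28 dpn against 94 dpc, HP from -0.97 to 0.78 at 188 dpn against 1 dpn, and VTN from -0.083 to 0.57 at 188 dpn against 94 dpc. At equal ALB, HP ranged from -0.095 to 1.77 at 1 dpn against 94 dpc, from -1.75 to 0.18 at 28 dpn against 1 dpn and from -0.38 to 0.49 at 28 dpn against 94 dpc, APOC3 from -0.29 to 0.078 at 188 dpn against 28 dpn and from -0.077 to 0.28 at 188 dpn against 1 dpn, and VTN from -0.28 to 0.015 at 188 dpn against 28 dpn.

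The median change of all probe sets at 188 dpn against 94 dpc was -0.08 as reported and 0.22 with centring, and 36.3% of the calls were higher as reported, 48.8% with quantile normalization and 56.9% with centring. At 1 dpn against 94 dpc these shares were 31.2%, 47.3% and 59.4%, at 28 dpn against 94 dpc 37.6%, 50.2% and 59.1%, and at 188 dpn against 28 dpn 33.7%, 42.5% and 46.6%. No paired analysis was possible because replicate numbers follow accession order. The mean over probe sets of a gene was not run, since each member has 1. Without detection calls, low signals such as those of AFP at 188 dpn cannot be told from background, and 6 samples a stage bound the precision.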

Other observations

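At 188 dpn, replicate 1 had high signals of several, but not all, genes on the list of hepatocyte enzymes and nuclear factors. Beside PCK1 and CYP2C33, it had 4251 for FBP1, of gluconeogenesis, where the next sample of its stage had 407, and 4590 for ASS1, of the urea cycle, where the next had 1015. DPYS and UPB1, of pyrimidine breakdown, stood at 936 and 704, where the next samples had 202 and 205. HNF4A, a nuclear factor of liver, kidney and gut, stood at 781 (next 146), and EPCAM, an epithelial adhesion protein, at 513 (next 70.0). The summed signal of the 32 enzymes and nuclear factors was 34791 in this sample, against a median of 7122 at 188 dpn, and PCK1, CYP2C33, ASS1 and FBP1 made up most of it. The sample led its stage in this sum and in the mean of the 32 genes on the log2 scale, at 7.90 against 7.51 in replicate 6, the next highest. It did not lead by the median of the 32 genes, which stood at percentile 50.3 of its array, below the 58.1 of replicate 6. The genes FBP1, ASS1, DPYS, UPB1 and HNF4A were picked after their values were seen. Other genes of the same list went another way at 188 dpn. CPS1 (261), CYP2E1 (826), FABP1 (172) and TAT (246) were highest in replicate 6 of that stage. Which cells gave the high signals of replicate 1 was not tested.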
